A study of Ovis aries with 6 samples.

Results

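AMPD3, an enzyme that deaminates AMP, was studied together with 8 other genes that make, remove, carry or sense adenosine in endothelial cells of the sheep mitral valve (VECs), which line its leaflets. The members were the rows of the count table with the symbols AMPD3, AMPD2, ADA, ADK, NT5E, ENTPD1, SLC29A1, ADORA2A and ADORA2B, and all 9 were found among 18865 rows. They were chosen with the difference between the plasma groups in view, so their levels and fold changes are given as a description. Counts of members past a test threshold are printed beside those of all genes and support nothing. Cultures were kept for 24 h with plasma of sheep after myocardial infarction (post-MI, 3 libraries) or with plasma of naive sheep (3 libraries), and messenger RNA was sequenced. No cells without plasma were analysed here, so each level is that of cells given plasma. The labels name no genotype, breed or age, and they name no separate cultures, cell donors or plasma donors for the libraries within a group. The spread between libraries may therefore be technical.

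Adenosine arises outside cells when ENTPD1 (CD39) removes phosphates from ATP and ADP to give AMP, and NT5E (CD73) turns AMP into adenosine. Adenosine then acts on surface receptors of the A2 type, which raise cyclic AMP through the G protein Gs, or enters the cell through the transporter ENT1, encoded by SLC29A1. Inside the cell adenosine kinase (ADK) returns it to AMP, adenosine deaminase (ADA) turns it into inosine, and AMP deaminases divert AMP to IMP. In endothelium this system is known for limiting inflammation, leakage and clotting.

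The libraries held 14858472 to 20672794 counts. The endothelial markers PECAM1 and CDH5 were present in every library, at 888 to 1410 and 864 to 1380 CPM (counts scaled to a common library total after TMM adjustment). Naive replicate 1 stood apart, at -52.3 on a first principal component on which the other 5 libraries lay between -0.5 and 18.5, and values without it are given where it matters. Positive log2 fold changes mean a higher level with post-MI plasma. They and their standard errors (SE) come from edgeR's quasi-likelihood fit of 14326 genes that passed a count filter. That fit called 0 genes, 0% of those tested, at an adjusted p under 0.05. Intervals given for single libraries are exact Poisson 95% intervals and, like the floor of 3 counts used for a count of 0, cover counting error alone.

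AMPD3, the AMP deaminase form best known from red cells, was lower with post-MI plasma in all 3 libraries than in any naive library. Naive replicates 1, 2 and 3 gave 95, 19 and 161 counts, or 4.75, 1.10 and 7.56 CPM. With post-MI plasma it had 3, 12 and 16 counts in replicates 1, 2 and 3, or 0.161, 0.819 and 0.923 CPM. Naive replicates 1 and 3 were high, naive replicate 2 lay just above the post-MI libraries, and post-MI replicate 1 was the lowest of all. The groups did not overlap, but the counting interval of naive replicate 2 (0.662 to 1.72 CPM) overlapped those of post-MI replicates 2 (0.423 to 1.43 CPM) and 3 (0.528 to 1.5 CPM). From naive replicate 2 downwards, each library overlapped its neighbour in the order of levels within counting error. The naive mean was 4.47 ± 3.24 CPM and the post-MI mean 0.635 ± 0.414 CPM (SD, n = 3 each).

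The log2 fold change of AMPD3 was -2.83 ± 0.82 (SE), a 7.11-fold lower level with post-MI plasma. Among all tested genes, 0.188% had a log2 fold change as low or lower. With single libraries left out it ran from -3.29, without naive replicate 2, up to -2.22 where naive replicate 3 was dropped, and dropping post-MI replicate 1 gave -2.35. The value was -2.79 without naive replicate 1. AMPD3 was a weakly expressed gene, since 91.2% of the tested genes had a higher average level in CPM, which is not corrected for gene length. It was also among the most variable within groups. Its within-group SD on the log2 CPM scale was 1.24, larger than that of 98.2% of tested genes. In these bulk cultures, fewer cells that express a gene and less of its RNA per cell cannot be told apart.

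**Figure D1:**
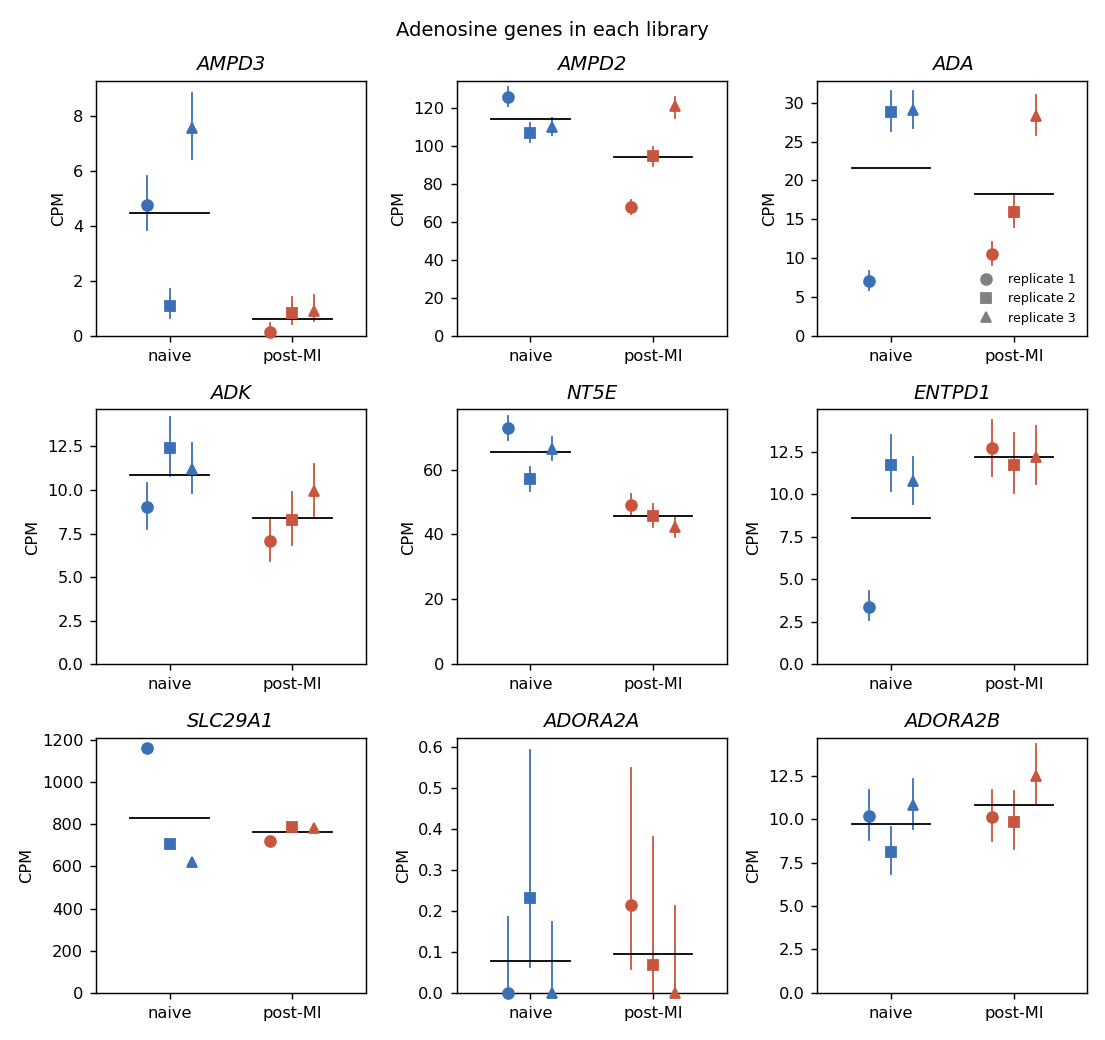
CPM of each of the 9 genes (y axis, from 0, a separate scale per gene) in the naive (blue) and post-MI (red) libraries (x axis). Symbols are replicates 1, 2 and 3, vertical bars are Poisson 95% intervals and horizontal lines are group means. AMPD3 was at 1.10 to 7.56 CPM in the naive and 0.161 to 0.923 CPM in the post-MI libraries, and NT5E is the other gene whose groups do not overlap.

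AMPD2, the AMP deaminase form found in many tissues, showed a smaller difference with overlapping groups. Its levels were 126, 107 and 110 CPM in naive replicates 1, 2 and 3 and 68.0, 94.7 and 121 CPM in post-MI replicates 1, 2 and 3. Post-MI replicate 1 was the lowest library for AMPD2 as it was for AMPD3, while post-MI replicate 3 reached the naive range. The log2 fold change of AMPD2 was -0.28 ± 0.22 (SE), and -0.09 without post-MI replicate 1. The muscle form AMPD1 had 1 count in 1 library and 0 in the other 5.

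Because gene length cancels when a ratio of 2 genes is compared between libraries, the AMPD3 count was also set against the AMPD2 count of the same library. AMPD2 counts were 26.5, 97.1 and 14.6 times the AMPD3 counts in naive replicates 1, 2 and 3, and 423, 116 and 131 times in post-MI replicates 1, 2 and 3. On the log2 scale the ratio of AMPD3 to AMPD2 was -5.07 ± 1.40 with naive and -7.53 ± 1.03 with post-MI plasma (SD, n = 3 each), and the groups did not overlap. Naive replicate 2, at -6.60, and post-MI replicate 2, at -6.85, were the closest libraries of the 2 groups. They held 19 and 12 AMPD3 counts, and the counting intervals of AMPD3 in these libraries overlapped.

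NT5E, the surface enzyme that makes adenosine from AMP, was lower in each post-MI library than in each naive library, by a smaller step than AMPD3. It was at 72.8, 57.0 and 66.3 CPM in naive replicates 1, 2 and 3 and at 49.2, 45.8 and 42.2 CPM in post-MI replicates 1, 2 and 3. The lowest naive library was above the highest post-MI library, and their counting intervals (53.5 to 60.7 and 46.1 to 52.5 CPM) did not overlap either. Group means were 65.4 ± 7.93 and 45.7 ± 3.50 CPM (SD, n = 3 each), and the log2 fold change was -0.52 ± 0.14 (SE), a 1.43-fold lower level with post-MI plasma. It stayed between -0.61 (naive replicate 2 dropped) and -0.42 (naive replicate 1 dropped) when single libraries were left out. NT5E is also a surface marker of mesenchymal cells. The 10 markers of fibroblasts and valve interstitial cells summed to 5870 to 14400 CPM in the naive and 10300 to 12500 CPM in the post-MI libraries. Of these, 0 of 10 did not overlap between the groups, against 16.1% of all tested genes. The naive library highest for NT5E, replicate 1, had the lowest sum, but most of the sum was COL1A1 and COL3A1 in every library. PDGFRA was highest in naive replicate 1, at 58.5 CPM against 24.7 to 32 CPM in the others. LUM and DPT were lowest in post-MI replicate 1, and the rest of the fibroblast and interstitial markers were lowest in naive replicate 1. Smooth muscle markers, 8 in the table, summed to 916 to 5060 CPM in naive and 4580 to 6250 CPM in post-MI libraries. All 7 tested had a positive log2 fold change (median 0.76), against 47.9% of all tested genes. CSPG4 and TAGLN were higher without overlap, as were 8.33% of all tested genes. For TAGLN the highest naive library had 435 CPM and the lowest post-MI library 436 CPM. The mean log2 CPM of the tested markers was 5.27, 7.21 and 5.19 in naive replicates 1, 2 and 3 and 6.98 to 7.28 in the post-MI libraries. RGS5 had 0 counts in every library. By edgeR 0 passed the adjusted threshold and 1 was higher at an unadjusted p under 0.05, as were 4.61% of all tested genes. The part of these markers in the NT5E values was not tested.

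ENTPD1, which acts one step before NT5E, stood out by a single library. Naive replicate 1 held 3.40 CPM, and naive replicates 2 and 3 held 11.7 and 10.8 CPM. The post-MI libraries lay close together at 12.7, 11.7 and 12.2 CPM. Naive replicate 1 was low, and naive replicate 2 and post-MI replicate 2 were level, so the groups overlapped. The log2 fold change was 0.50 ± 0.42 (SE) with all libraries, 0.13 without naive replicate 1 and 0.79 without naive replicate 2. ENTPD1 is abundant on leukocytes. Of 11 leukocyte markers CD2 had 0 counts in every library, and CD3E, ITGAM, CD53 and SPI1 were at or under 0.4 CPM in each, with PTPRC at 0.141 to 1.33 CPM. The 11 summed to 372 to 871 CPM in the naive and 438 to 554 CPM in the post-MI libraries, most of it LAPTM5 (336 to 815 CPM).

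The NT5E count was 21.4, 4.85 and 6.17 times the ENTPD1 count in naive replicates 1, 2 and 3, and 3.87, 3.90 and 3.45 times in post-MI replicates 1, 2 and 3. On the log2 scale this ratio averaged 3.11 ± 1.15 with naive and 1.9 ± 0.10 with post-MI plasma (SD, n = 3 each). The groups did not overlap. The post-MI libraries were within 0.18 of each other on the log2 scale, and naive replicate 1 lay far above the other 5.

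**Figure D2:**
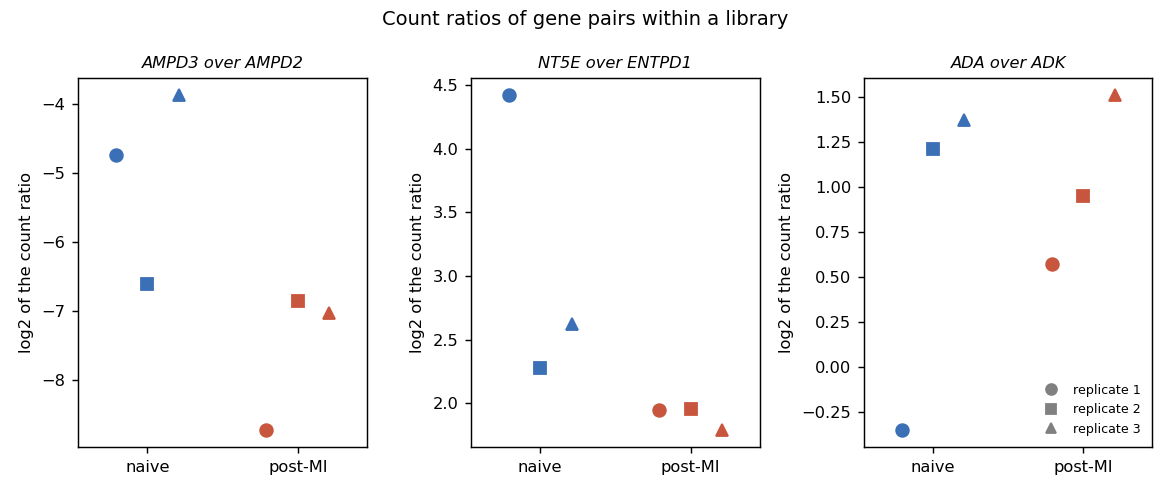
Log2 of the count ratio of 2 genes in the same library (y axis, a separate scale per panel) for naive (blue) and post-MI (red) libraries, with symbols for replicates. The AMPD3 to AMPD2 and NT5E to ENTPD1 ratios do not overlap between the groups. AMPD3 and NT5E do not overlap by themselves either, and the share of other gene pairs without overlap was not counted. The ADA to ADK ratio overlaps (-0.35 to 1.37 naive, 0.57 to 1.51 post-MI), as does the ADORA2B to SLC29A1 ratio, which is not drawn.

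The enzymes that remove adenosine inside the cell differed in how steady they were. ADA, which deaminates adenosine to inosine, was at 7.05, 28.8 and 29.1 CPM in naive replicates 1, 2 and 3 and at 10.5, 16.0 and 28.3 CPM in post-MI replicates 1, 2 and 3. Both groups spanned low and high libraries and overlapped almost completely. Its log2 fold change was -0.24 ± 0.57 (SE), and the sign turned when naive replicate 2 (0.02), naive replicate 3 (0.03) or post-MI replicate 1 (0.04) was dropped. Without naive replicate 1 it was -0.66.

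ADK, which phosphorylates adenosine back to AMP, was at 9.0, 12.4 and 11.2 CPM in naive replicates 1, 2 and 3 and at 7.07, 8.26 and 9.93 CPM in post-MI replicates 1, 2 and 3. Naive replicate 1 lay between post-MI replicates 2 and 3, so the groups overlapped. The log2 fold change was -0.37 ± 0.21 (SE), with a range of -0.51 to -0.26 when single libraries were left out. The log2 ratio of ADA to ADK was 0.74 ± 0.95 with naive and 1.01 ± 0.47 with post-MI plasma (SD, n = 3 each). Naive replicate 1 was the only library with fewer ADA than ADK counts.

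The transporter gene SLC29A1 gave the most counts of the 9 members, 11509 to 23197 per library. Its levels were 1160, 707 and 620 CPM in naive replicates 1, 2 and 3 and 721, 786 and 783 CPM in post-MI replicates 1, 2 and 3. Naive replicate 1 was the highest library and the post-MI libraries lay within the naive range. The log2 fold change was -0.12 ± 0.25 (SE), and its sign turned to 0.21 without naive replicate 1.

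Of the A2 receptors, ADORA2B was measured in every library and ADORA2A was near or under the floor. ADORA2B was at 10.2, 8.10 and 10.8 CPM in naive replicates 1, 2 and 3 and at 10.1, 9.83 and 12.5 CPM in post-MI replicates 1, 2 and 3. The groups overlapped, and the log2 fold change was 0.16 ± 0.19 (SE). For ADORA2A naive replicates 1, 2 and 3 gave 0, 4 and 0 counts, and post-MI replicates 1, 2 and 3 gave 4, 1 and 0. It was the member below the count filter, and its level was not distinguishable between groups at this depth. A count of 0 allows up to 0.150, 0.141 and 0.173 CPM in naive replicates 1 and 3 and post-MI replicate 3. The remaining adenosine receptor genes were as low, with ADORA1 at 0 counts in every library and ADORA3 at or under 0.235 CPM.

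**Figure D3:**
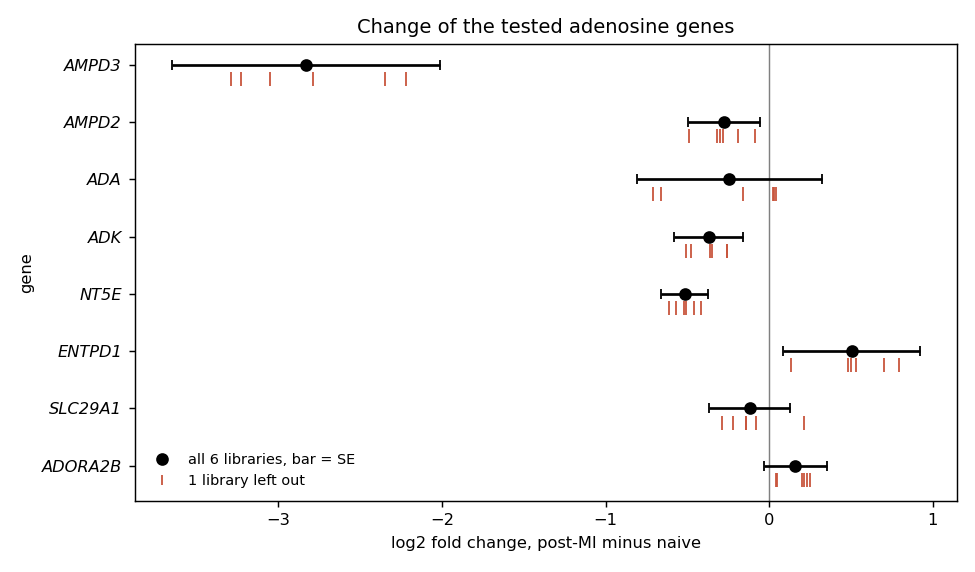
Log2 fold change of the 8 tested genes (y axis), post-MI minus naive (x axis). Points with bars are the fit of all 6 libraries with its SE, and red ticks are the 6 fits that leave out 1 library each. AMPD3 is at -2.83 with ticks from -3.29 to -2.22, and the ticks of ADA and SLC29A1 lie on both sides of 0.

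Counted over the 8 members that passed the filter, 6 had a negative and 2 a positive log2 fold change, where 52.1% of all tested genes had a negative one. The median was -0.26, against -0.01 over all tested genes. The groups did not overlap for 2 members (AMPD3 and NT5E), both lower with post-MI plasma, where 7.81% of tested genes were lower without overlap. An absolute log2 fold change of at least 1 was seen for 1 member, AMPD3, and for 5.09% of tested genes. By edgeR's quasi-likelihood test 0 of the 8 passed the adjusted threshold, and 2 had an unadjusted p under 0.05, as had 8.68% of tested genes. The DESeq2 Wald test called 1 member, AMPD3, and 1.51% of the genes it tested. Since the members were chosen on this contrast, nothing is read from these counts.

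Among themselves, the members did not follow a common profile over the 6 libraries. After each gene was centred on its own mean log2 CPM, AMPD3 differed from the other 7 tested members by a root mean square of 1.39 (AMPD2) to 2.05 (ENTPD1). The other 21 pairs differed by 0.23 (AMPD2 and ADK) to 1.02 (ADA and SLC29A1). Profiles were not divided by their SD, so these differences depend on the spread of each gene as well as on the shape of its profile. Naive replicate 1 was the lowest library for ADA and ENTPD1, at -1.29 and -1.47 from their means, and the highest for AMPD2, NT5E and SLC29A1, at 0.30, 0.42 and 0.57. AMPD3 ranged over 4.83 on the log2 scale from its lowest to its highest library, ADA over 2.03 and ENTPD1 over 1.87, while AMPD2, ADK, NT5E, SLC29A1 and ADORA2B ranged over 0.62 to 0.90.

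**Figure D4:**
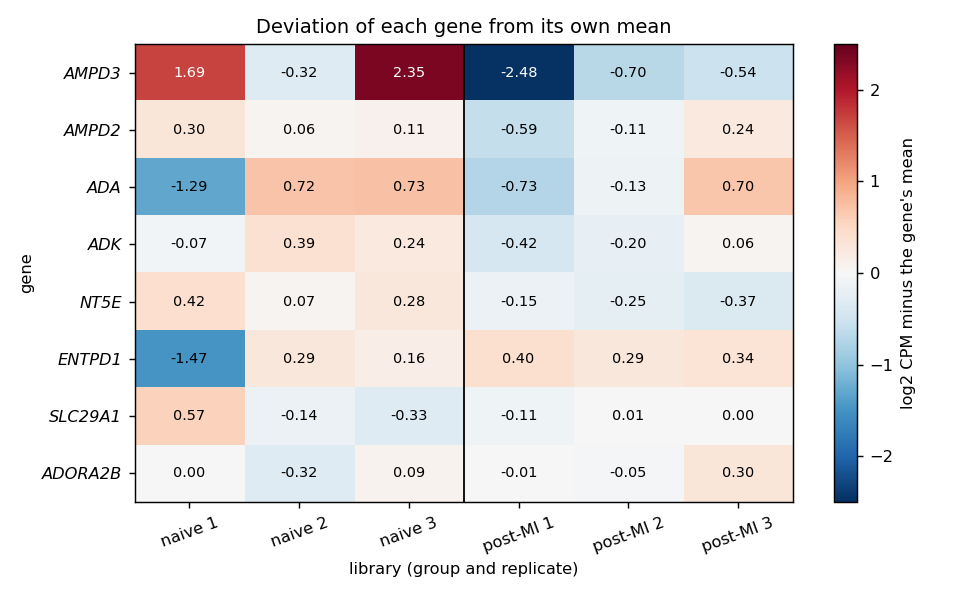
Deviation of log2 CPM from the gene's own mean over 6 libraries (colour and printed value) for the 8 tested genes (rows) in each library (columns, naive left of the line). AMPD3 spans -2.48 in post-MI replicate 1 to 2.35 in naive replicate 3, and naive replicate 1 is low for ADA (-1.29) and ENTPD1 (-1.47).

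The genes whose centred profile was most like that of AMPD3 were ACKR4 (an atypical chemokine receptor), CEMIP (which takes part in hyaluronan breakdown), KLF2 (a flow-responsive transcription factor), GPNMB (a membrane glycoprotein) and SLCO4A1 (an organic anion transporter). Their root mean square differences from AMPD3 over the 6 libraries were 0.60, 0.67, 0.71, 0.72 and 0.72 on the log2 scale. ACKR4 was at 13.7, 3.13 and 11.3 CPM in naive replicates 1, 2 and 3 and at 1.55, 2.25 and 2.77 CPM in post-MI replicates 1, 2 and 3. Like AMPD3, it was lowest in post-MI replicate 1, and naive replicate 2 was the naive library nearest to the post-MI group. Its highest library was naive replicate 1, whereas that of AMPD3 was naive replicate 3. ACKR4 was picked for its likeness to AMPD3, so the shared features support nothing. The set depended on the measure. With profiles divided by their SD 0 of the 5 remained (HERC3, CLN3, KIDINS220, PIK3CG and RWDD4 came first), and with 1 library left out from 1 (naive replicate 3 dropped) to 5 (post-MI replicate 2 dropped) remained.

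The nearest genes to other members were closer, at 0.04 to 0.15. This measure depends on the spread of a gene, which was larger for AMPD3, so the contrast is not read as a difference in likeness. AMPD2 was nearest to HMOX2 (0.05), ADA to FHOD3 (0.15), ADK to SEC23A (0.04), NT5E to EGR2 (0.06) and ADORA2B to TRADD (0.04). ENTPD1 was nearest to CC2D2B (0.06). In naive replicate 1 CC2D2B had 8.85 CPM, against 29.8 to 36.8 CPM in the other 5 libraries, the same single low library as ENTPD1. Neither symbol was found in the RefSeq gene table, so it was not checked whether these rows overlap in the genome and share reads, and they are not taken as independent.

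Other gene groups differed between the libraries too. The 9 genes known as targets of the oxidant-responsive factor NRF2 summed to 2230, 939 and 1150 CPM in naive replicates 1, 2 and 3 and to 282, 429 and 590 CPM in post-MI replicates 1, 2 and 3. The lowest naive library was replicate 2 and the lowest post-MI library replicate 1, as for AMPD3. The highest naive library differed, being replicate 1 for the sum and replicate 3 for AMPD3. Within the list, HMOX1, GCLM, GCLC and SLC7A11 were lowest among the naive libraries in replicate 3. By edgeR 0 of the 9 passed the adjusted threshold and 9 had an unadjusted p under 0.05, all lower, where 4.08% of all tested genes were lower at that p. The 15 genes induced by hypoxia, a stimulus known to raise NT5E and ADORA2B in endothelium, summed to 7200, 2400 and 2760 CPM in the naive libraries and 1530, 1740 and 2260 CPM in the post-MI libraries. Of 13 hypoxia genes tested 0 passed the adjusted threshold, and 6 were lower at an edgeR unadjusted p under 0.05, against 4.08% of all tested genes. ADM alone had a positive log2 fold change, 0.39. The mean log2 CPM of those tested was 7.22, 5.84 and 5.88 in naive replicates 1, 2 and 3 and 5.40 to 5.55 in the post-MI libraries. Naive replicate 1 had 181 CPM of BNIP3, against 16.9 to 25.4 CPM in the others, and 118 CPM of SLC2A1, against 13.2 to 20.1 CPM. Of 12 red cell and platelet markers 6 were found in the table. ALAS2 and PPBP had 0 counts in all 6 libraries, the band 3 gene SLC4A1 was at or under 0.0939 CPM, the red cell gene EPB42 was at 12.3 to 16.3 CPM and the platelet gene GP1BA at 25 to 54.6 CPM, and the 6 summed to 44.4 to 75.9 CPM in naive and 45.9 to 68.4 CPM in post-MI libraries. The part of these groups in the values of AMPD3, NT5E and ADORA2B was not tested.

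The rest of purine metabolism and signalling was followed in lists chosen by function. Of 105 symbols 98 were in the table and 74 were tested, and edgeR's quasi-likelihood test called 0 of them at the adjusted threshold. At an unadjusted p under 0.05 there were 2 lower and 5 higher, where 4.08% of all tested genes were lower and 4.61% higher. The lower genes were SLC29A4 and GJA1, and the higher ones GJA4, ADCY2, PDE2A, PDE3A and PDE4B. Log2 fold changes were negative for 39 and positive for 35, with a median of -0.04. The groups did not overlap for 7 lower and 3 higher genes, against 7.81% and 8.33% of all tested genes. Rows under an older and a current symbol of one gene (ADSS and ADSS2, ADSSL1 and ADSS1) are counted separately and may share reads.

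**Figure D5:**
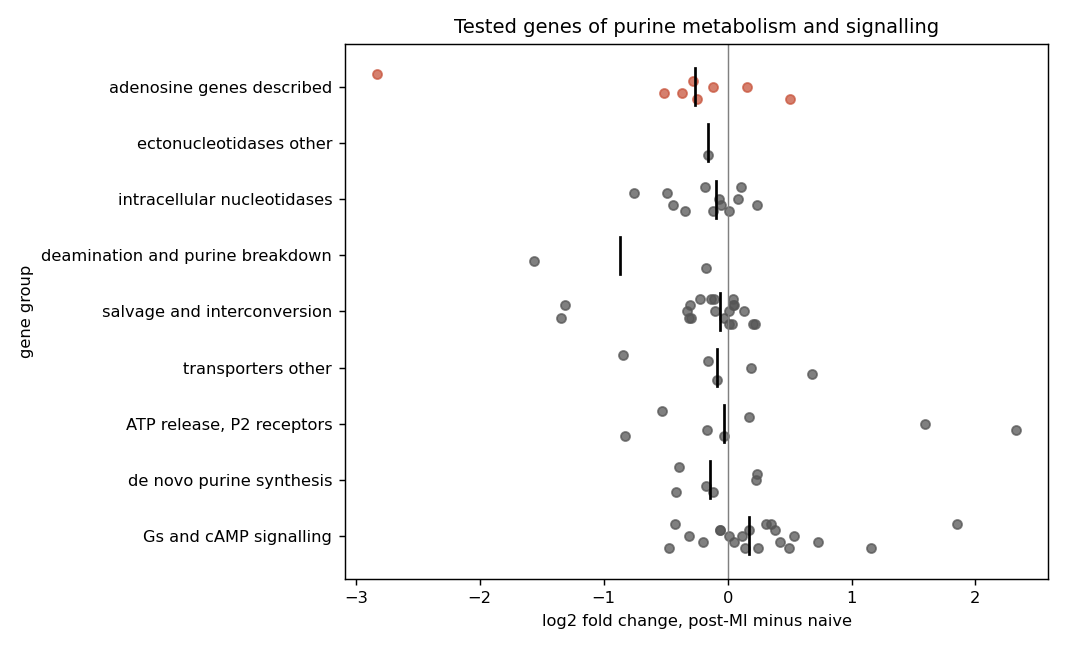
Log2 fold change (x axis, post-MI minus naive) of every tested gene in the 9 adenosine genes' list (red, 8 tested) and in the other purine lists (grey, 1 point per gene), with the list median as a black line. AMPD3 at -2.83 is the lowest point, and GJA4 at 2.33 the highest.

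Among genes of purine breakdown and salvage, 3 had an absolute log2 fold change of at least 1, and 2 of them through a single library. GMPR, which turns GMP into IMP, the product of AMP deaminase, was at 0.850, 0.810 and 0.705 CPM in naive replicates 1, 2 and 3 and at 0.214, 0.137 and 0.577 CPM in post-MI replicates 1, 2 and 3. These levels rest on 17, 14 and 15 counts in the naive and 4, 2 and 10 counts in the post-MI libraries. The groups did not overlap, and the log2 fold change was -1.31 ± 0.56 (SE, edgeR unadjusted p = 0.0512). It ran from -2.10 with post-MI replicate 3 dropped to -0.99 with post-MI replicate 2 dropped. PNP splits the inosine made by ADA. Its level was 402 CPM in naive replicate 1, against 47.0 to 58.2 CPM in the other 5 libraries. Its log2 fold change was -1.56 ± 0.81 (SE) with naive replicate 1 and 0.22 without it. AK4, an adenylate kinase of mitochondria, showed the same single high library, at 30.4 CPM against 3.82 to 6.15 CPM, and gave -1.34 ± 0.73 (SE) with it and 0.09 without it. Of 20 tested salvage and interconversion genes 11 had a negative and 9 a positive log2 fold change, with a median of -0.07. AK6 gave -0.33 ± 0.16 (SE).

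Tested nucleotidases other than ENTPD1 and NT5E had absolute log2 fold changes under 1. Inside the cell, 8 of 12 tested genes had a negative log2 fold change (median -0.10). ENTPD7 gave -0.76 ± 0.38 (SE), and -0.16 without naive replicate 1. NT5DC1 gave -0.49 ± 0.24 and ENTPD5 -0.44 ± 0.22 (SE). These last 2 of the 12 were lower with post-MI plasma without overlap, as were 7.81% of all tested genes. On the cell surface ENPP1, which splits ATP to AMP, gave -0.16 ± 0.36 (SE), and 0.41 without naive replicate 3. ENTPD2, ENTPD3, ENPP3, ALPL and ACPP were below the filter. The secreted adenosine deaminase ADA2 had 0 counts in every library, which by the floor of 3 counts allows up to 0.141 to 0.205 CPM per library. APRT, a salvage gene that most cells use, was also listed at 0 in all 6, so a row at 0 is not read as absence of the transcript.

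Among the other nucleoside transporters, SLC29A4 was at 2.35, 1.79 and 2.21 CPM in naive replicates 1, 2 and 3 and at 0.857, 1.30 and 1.38 CPM in post-MI replicates 1, 2 and 3. Its groups did not overlap and the log2 fold change was -0.85 ± 0.32 (SE, edgeR unadjusted p = 0.0338). The concentrative transporter SLC28A2 had 0.150 CPM in naive replicate 1 against 5.80 to 11.6 CPM in the others, and gave 0.68 ± 0.95 (SE). It was 0.12 with naive replicate 1 dropped, 1.32 with naive replicate 2 dropped and 1.91 in limma-voom. SLC29A2, a relative of SLC29A1, gave 0.19 ± 0.15 (SE). De novo purine synthesis genes had a median of -0.15 over 6 tested, with PRPS2 at -0.42 ± 0.29, PRPS1 at -0.39 ± 0.28 (0.01 without naive replicate 1) and PPAT at 0.24 ± 0.20 (SE).

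Within the purine lists the largest log2 fold change outside the 9 members was that of the connexin gene GJA4, in the list of ATP release and P2 receptors. In the same list GJA1 (connexin 43), whose channels can release ATP, was at 195, 153 and 136 CPM in naive replicates 1, 2 and 3 and at 100, 78.1 and 94.1 CPM in post-MI replicates 1, 2 and 3. The groups did not overlap, and the log2 fold change was -0.83 ± 0.18 (SE), with an edgeR adjusted p of 0.354 over all genes and a call by DESeq2. The arterial connexin GJA4 was at 4.75, 55.0 and 57.1 CPM in naive libraries and 211, 321 and 56.7 CPM in post-MI libraries. Post-MI replicate 3 lay within the naive range, and the log2 fold change was 2.33 ± 0.93 (SE). GJA5 gave 1.59 ± 0.86 (SE), with a range of 0.89 (post-MI replicate 1 dropped) to 2.61 (naive replicate 2 dropped).

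Downstream of the A2 receptors, 15 of 21 tested genes of Gs and cyclic AMP signalling had a positive log2 fold change (median 0.18), as had 47.9% of all tested genes. Their mean log2 CPM was 4.28 in naive replicate 1, against 4.69 to 4.92 in the other libraries. At an unadjusted p under 0.05, 4 of the 21 were higher and 0 lower, against 4.61% and 4.08% of all tested genes. Of these, PDE3A and PDE4B were named after their values were seen. PDE2A, a cyclic nucleotide phosphodiesterase of endothelium, was at 1.85, 7.70 and 6.15 CPM in naive libraries and 28.9, 23.2 and 4.44 CPM in post-MI libraries, so post-MI replicate 3 was within the naive range. Its log2 fold change was 1.85 ± 0.74 (SE), and 1.46 without naive replicate 1. The adenylate cyclase ADCY2 gave 1.16 ± 0.42, PDE3B 0.73 ± 0.38 and PDE3A 0.50 ± 0.15 (SE). Without naive replicate 1 ADCY2 gave 1.51 and PDE3B 0.40. GNAS, which encodes the Gs subunit itself, gave -0.06 ± 0.15 (SE).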

How the data were processed

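Per the submitters' processing notes, reads were processed on build Oar_v3.1 with FastQC, MultiQC 1.5, STAR 2.5.2b, featureCounts 2.0.0, SAMtools 1.9 and DESeq2 1.26.0. Which annotation and strand setting the counting used is not given in the sources used here. Raw counts by gene symbol, as the authors deposited them for the whole series, were used. The per-sample files were not used. No column was left without a sample. Groups and replicate numbers came from the sample titles.

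In R 4.3.3, genes were kept by filterByExpr of edgeR 4.0.16 (minimum count 10, minimum total count 15), scaled by TMM and compared by the quasi-likelihood test of edgeR, adjusted by Benjamini-Hochberg over all 14326 genes with a threshold of 0.05. Each SE is the size of the log2 fold change divided by the root of F. Log2 CPM used a prior count of 2. The code was tested on simulated data. Alternatives were DESeq2 1.42.0, limma-voom (limma 3.58.1), other scalings and filters, a replicate block and each library left out.

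The members and lists were chosen with earlier results of these data known. Named pathway genes were the 3 with the largest absolute log2 fold change per list. Genes like AMPD3 were the 5, and genes like each other member the 1, with the smallest root mean square difference of centred log2 CPM among genes with a mean of at least 1 and no provisional locus name. Total counts per library limit precision for low genes. For 1 member the nearest gene is not reported here.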

Additional observations from a re-analysis of the deposited data

How the results depend on the processing

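The number of genes called was 0 with edgeR and with limma-voom, the other scalings, the other filters and each library left out, and 221 (153 higher, 68 lower) with the DESeq2 Wald test. For the purine lists it was 0 and, with DESeq2, 1 (GJA1). At an unadjusted p under 0.05 edgeR gave 1244 genes, and 603 (without post-MI replicate 2) to 1629 (without naive replicate 2) with 1 library left out. The cause of these differences was not tested. Of the 8 members tested, 6 had a negative log2 fold change, and 5 to 6 with 1 library left out.

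Signs turned for PNP (0.22), AK4 (0.09) and PRPS1 (0.01) without naive replicate 1 and for ENPP1 (0.41) without naive replicate 3. With 1 library left out PNP ran from -2.0, AK4 from -1.78, PRPS1 from -0.58 and ENPP1 from -0.41 to these values. In the other settings AMPD3 ran from -2.87 (plain library totals) to -2.68 (replicate block). Same-numbered libraries deviated together with correlations of 0.15, -0.11 and 0.09 across genes, so the numbers were not taken to pair the libraries. With the replicate block edgeR called 0 genes, 0 purine genes, and 6 members were negative. Depth limits AMPD3 in post-MI replicate 1 (3 counts, 0.0331 to 0.470 CPM) and ADORA2A in all 6 libraries. It also limits GMPR (2 to 17 counts per library) and GJA5 (1 to 49 counts per library).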

Other observations

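AMPD3 lies between RNF141 and ADM, the gene of the vasodilator peptide adrenomedullin, in the gene order that RefSeq gives for the sheep assembly ARS-UI_Ramb_v3.0 (no coordinates were taken from it). RNF141 gave a log2 fold change of 0.07 ± 0.19 and ADM 0.39 ± 0.37 (SE), against -2.83 ± 0.82 for AMPD3. The next gene beyond ADM, SBF2, gave 0.31 ± 0.17 (SE). The genes on either side of NT5E, SNX14 and TBX18, gave -0.28 ± 0.16 and -0.08 ± 0.33 (SE), against -0.52 ± 0.14 for NT5E. Of the 9 members 8 were found by symbol in that table. These neighbours were looked at after the values of the members were seen.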
